A study of Homo sapiens with 101 samples.

Results

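The respiratory chain of mitochondria is described here through its nuclear genes in HT1080 cells given 1 of 11 compounds. Members were taken by symbol: NDUFA, NDUFB, NDUFC, NDUFS and NDUFV for complex I, SDHA to SDHD for complex II, UQCR for complex III, COX4 to COX8 for complex IV, and ATP5F, ATP5M and ATP5P for ATP synthase. The rule found 95 of the 19774 genes with a probe set of their own, and each gene was read from the probe set with its highest mean over all arrays. Of these 95 genes, 78 code for subunits, 12 code for assembly factors of complexes I and II whose symbols share a prefix, and 5 are pseudogenes or non-coding RNAs. A total of 86 members (72 subunits, 12 assembly factors and 2 pseudogenes, SDHAP1 and ATP5MC2P1) passed the filter on low values and were tested in a fit of 11496 genes. Some further symbols of the rule, SDHB and UQCRFS1 among them, were not analysed here, and the gene once called NDUFA4L2 now carries another name and falls outside the rule.

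The respiratory chain sits in the inner mitochondrial membrane. Complexes I and II take electrons from NADH and succinate and pass them to ubiquinone, complex III hands them to cytochrome c, and complex IV gives them to oxygen, while ATP synthase uses the proton gradient that complexes I, III and IV build. Most subunits are encoded in the nucleus and imported, the rest are encoded in mitochondrial DNA, and complex I in particular needs dedicated assembly factors that join its modules and are absent from the finished enzyme.

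HT1080 is a human fibrosarcoma cell line. Gene expression was measured in 100 samples on Affymetrix HT HG-U133+ PM arrays, in 17 groups: 11 compounds and 6 controls. One ETP_DMSO sample was read on a second array, and its arrays were averaged. Each compound was given at 1 dose in DMSO, which the submitters picked so that total p53 protein went up 1.5-fold. The label of the MMS control reads CTL and does not name DMSO. MMC at 0.1 µM, NCS at 10 ng/ml, H2O2 at 100 µM, ENU at 2 mM, GAD at 2 mM and tBHQ at 200 µM were set against DMSO_pooled. BRO at 600 µM was set against BRO_DMSO, MMS at 200 µM against MMS_CTL, CUR at 10 µM against CUR_DMSO, ETP at 0.3 µM against ETP_DMSO and QUE at 30 µM against QUE_DMSO. MMC and H2O2 had 5 samples and every other group had 6. Exposure times are not given in the sources used here. MMC, ENU and MMS are the usual short forms of mitomycin C, ethylnitrosourea and methyl methanesulfonate, which damage DNA as alkylating agents, NCS of neocarzinostatin, which cuts DNA, ETP of etoposide, which traps topoisomerase II, tBHQ of tert-butylhydroquinone, and CUR and QUE of curcumin and quercetin. GAD and BRO are kept as codes. The doses differ and MMC, NCS, H2O2, ENU, GAD and tBHQ share their control samples, so their values are not independent of each other. That DMSO_pooled is their control was read from the labels by inference. Nothing in the labels says that samples of a group were separate cultures, so each p-value sets a difference against the scatter of the arrayed samples alone, some of which may be technical.

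The values are log2 intensities, 1 unit being a doubling. The median over all probe sets of an array lay at 2.88 to 2.92 in the BRO set and at 3.48 to 3.54 in the ETP set, so levels are compared within a set only. CDKN1A, a p53 target that halts the cell cycle, passed the test as higher in 9 of 11 compounds (the values for tBHQ and CUR were 0.33 and 0.51), and MDM2, a p53 target that limits p53, passed in 8. Of the mesenchymal markers VIM, CD44, SPARC, ITGB1 and MMP14 had group means from 9.45 to 13.25 and S100A4 from 4.52 to 6. The epithelial markers EPCAM, CDH1 and KRT19 and the endothelial, leukocyte and muscle markers with a value all stayed under 4 in every group, while KRT8 lay at 7.87 to 8.96. SPARC itself fell with GAD (-0.90) and MMS (-0.73). A pair of libraries, labelled as replicate 2 of ETP and of QUE, stood apart from their groups in opposite directions: in the mean over 72 subunits the library labelled QUE replicate 2 read 10.99 and its 5 fellows 10.60 to 10.73, and the library labelled ETP replicate 2 read 10.70 and its fellows 10.96 to 11.09. Whether these labels are correct was not tested. For QUE and ETP the counts of called members and the calls named are given without these libraries too where they move. Other counts and values include these libraries unless said otherwise.

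A gene was called changed when the fitted difference from its control had a Benjamini-Hochberg adjusted p under 0.05 in limma and was at least 1.5-fold, and "rose" and "fell" are used for such genes. With all libraries in the fit, 11 of the 86 tested members (12.8%) were called in at least 1 compound, where 42.6% of all genes were. GAD changed 6 of 86 members, 3 higher and 3 lower, where 26.2% of all 11496 genes were called, 11.1% higher and 15% lower. QUE lowered 5 of 86 members and raised none, where 6.65% of all genes were called lower and 13% in either direction. MMS changed 2 members, 1 in each direction, where 11% of all genes were called, 4.46% higher and 6.56% lower. No member was called with MMC (0.165% of all genes called), NCS (2.44%), H2O2 (0.931%), ENU (10.9%), tBHQ (9.83%), BRO (7.39%), CUR (2.2%) or ETP (2.68%). In these 8 compounds, in the same order, limma gave an unadjusted p under 0.05 for 0, 6, 0, 22, 29, 21, 16 and 4 members. Without the library labelled QUE replicate 2 the members lowered by QUE numbered 8 of 86, with none raised (9.73% of all genes called lower, 18.9% in either direction). With or without that library, the share of members lowered by QUE lay close to the share of all genes called lower. The ETP count went from 0 to 1, NDUFAF4 lower, once the library labelled ETP replicate 2 was left out (1.3% of all genes called lower, 3.96% in either direction). In bulk RNA a smaller share of some cells and less RNA per cell cannot be told apart.

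**Figure D1:**
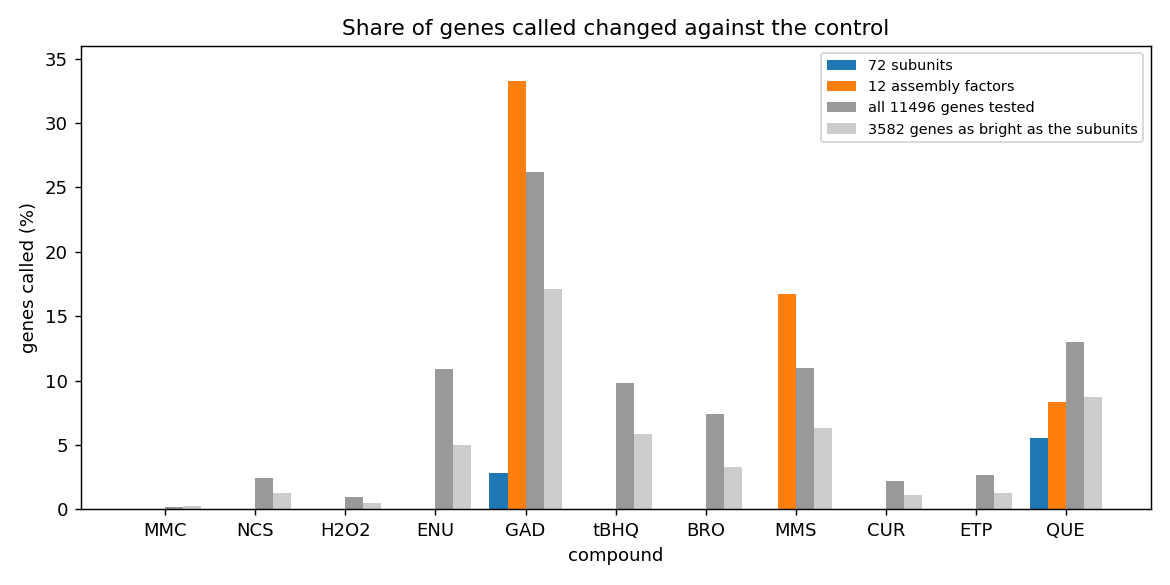
Percentage of genes called changed (vertical axis) in each compound against its control (horizontal axis), for subunits, assembly factors, all genes tested and the genes at least as bright as the dimmest tested subunit. Subunits have a bar only in GAD (2.78%) and QUE (5.56%), each lower than both grey bars of that compound with all libraries in the fit. Without the library labelled QUE replicate 2 the QUE values are 9.72% for subunits, 12.4% for the bright genes and 18.9% for all genes. The grey bars count genes called in either direction, while every subunit called from the probe set used for its gene was lower. The assembly factor bar is the tallest within GAD (33.3%) and MMS (16.7%), and rests on 12 genes.

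By kind of member, with GAD 2 of 72 subunits were called (2.78%) against 4 of 12 assembly factors (33.3%), with QUE 4 subunits (5.56%) and 1 assembly factor (8.33%), or 7 subunits (9.72%) and the same number of assembly factors without the library labelled QUE replicate 2, and with MMS 0 subunits and 2 assembly factors (16.7%), 15 subunits having an adjusted p under 0.05 below the fold minimum and 21 an unadjusted p under 0.05 in limma. The assembly factor shares rest on 12 genes, and the shares of all genes called with each compound are those given above. From the probe set used for each gene, every subunit called was lower. Other probe sets of COX4I1 and NDUFS1 were called higher with GAD. The shares of bright genes below count both directions. Subunits gave bright signals, so they were also set beside the 3582 genes whose mean was at least 8.45, that of the dimmest tested subunit. Of these bright genes 17.1% were called with GAD, 8.74% with QUE (12.4% without its library labelled replicate 2) and 6.31% with MMS, and in the compounds without a called member 0.223% with MMC, 1.23% with NCS, 0.503% with H2O2, 5% with ENU, 5.83% with tBHQ, 3.27% with BRO, 1.12% with CUR and 1.28% with ETP. Across the 11 compounds 6 of 72 subunits (8.33%) and 5 of 12 assembly factors (41.7%) were called at least once, and so were 28.3% of the bright genes and 42.6% of all genes. These shares include all libraries. Without the library labelled QUE replicate 2 the subunits NDUFS3, NDUFS7 and NDUFV3 were called as well. With all libraries no member was called in both directions, and 1 member, NDUFAF3, was called in more than 1 compound. Without the library labelled ETP replicate 2, NDUFAF4 was called lower with ETP (-0.62). It was called higher with GAD (0.63), so in that setting NDUFAF4 was called in both directions.

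Most subunit differences were small. With GAD 58 of 72 subunits (80.6%) lay within 0.25 of 0 on the log2 scale, against 40.7% of all genes, and their median absolute difference was 0.12, against 0.25 for the bright genes and 0.32 for all genes. With MMC, NCS and H2O2 all 72 subunits lay within 0.25. QUE had the lowest share, 46 of 72 (63.9%), against 53.7% of all genes, with a median absolute difference of 0.16 against 0.19 for the bright genes. Without the library labelled QUE replicate 2 the share was 41 of 72 (56.9%) against 48.1% of all genes, and the median absolute difference 0.21 against 0.22. The standard error of a subunit difference had a median of 0.06 to 0.08 over the compounds. Without the fold minimum, 40 members passed an adjusted p of 0.05 with GAD (17 higher, 23 lower), 30 with QUE (2 higher, 28 lower), 23 with MMS (13 higher, 10 lower), 19 with tBHQ (5 higher, 14 lower), 13 with ENU (9 higher, 4 lower), 10 with BRO (5 in each direction), 3 with CUR (all lower), 1 with NCS, and 0 with MMC, H2O2 and ETP, where limma gave unadjusted p under 0.05 for 0, 0 and 4. The same rule passed 61.7% of all genes with GAD, 33.4% with QUE, 35% with MMS, 31.9% with tBHQ, 33.2% with ENU, 30.2% with BRO, 5.11% with CUR, 7.7% with NCS, 0.27% with MMC, 1.89% with H2O2 and 5.08% with ETP. These counts without a fold minimum moved with the pairing of same-numbered samples, which deviate together in 9 compounds. With the number as a block they were 33 with tBHQ (52.8% of all genes), 25 with BRO (46.1%), 21 with ENU (48.9%), 12 with CUR (25%), 11 with NCS (36.9%), 1 with MMC (2.86%) and 1 with H2O2 (11.4%). The member with MMC was NDUFAF4 (-0.33, adjusted p = 0.034) and that with H2O2 was SDHAF3 (-0.34, adjusted p = 0.027). With the block CUR had 4 members higher and 8 lower. No member passed the fold minimum with the block in these 7 compounds, where the block moved the share of all genes called to 0.522% with MMC, 1.95% with H2O2 and 3.9% with CUR, and to 3.72% with NCS. Without the libraries labelled replicate 2, the members at any fold were 42 with QUE (47.9% of all genes) and 2 with ETP (10.8%).

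The compound and control samples did not overlap at all in 23 members with GAD, where 39.2% of all genes did not overlap, in 16 with MMS (19.5%), 13 with tBHQ (16.3%), 7 with ENU (16.4%), 7 with BRO (13.8%), 7 with QUE (9.61%), 2 with CUR (3.85%) and 1 with NCS (4.46%). No member was without overlap with MMC (1.09%), H2O2 (3.48%) or ETP (4.02%). The QUE and ETP counts include the libraries labelled replicate 2, and some members overlapped with QUE only through that library.

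**Figure D2:**
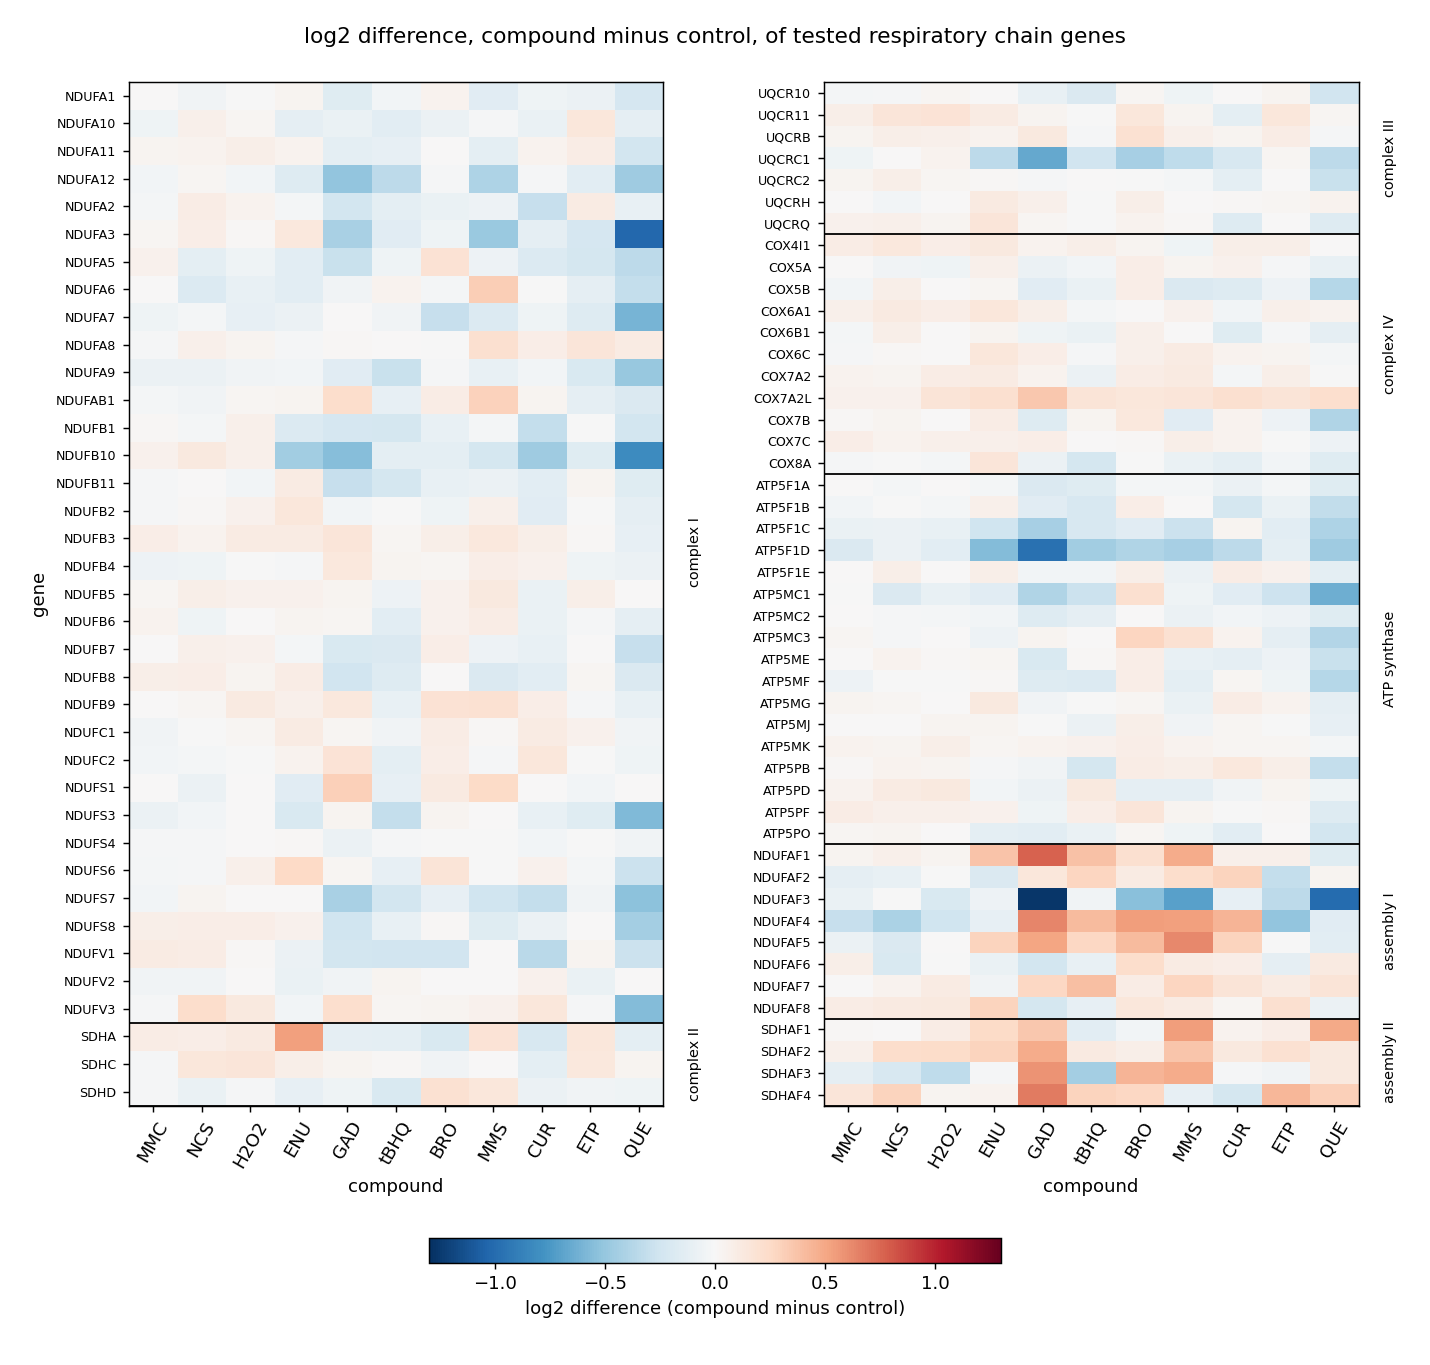
Difference between compound and control on the log2 scale (colour, blue lower and red higher) for 84 tested genes (72 subunits and 12 assembly factors, vertical axis, grouped by complex) in the 11 compounds (horizontal axis). Most cells are pale, the deepest blue is NDUFAF3 with GAD (-1.26), the deepest red is NDUFAF1 with GAD (0.77), and the QUE column is blue in 64 of 72 subunits.

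Complex I, which oxidises NADH, had 34 tested subunits, and the called ones fell with QUE. NDUFA3, a small accessory subunit of the membrane arm, read 8.54, 8.62 and 9.92 (lowest, median and highest) in 6 QUE samples and 9.47, 9.92 and 10.01 in 6 QUE_DMSO samples. The highest QUE value is the library labelled QUE replicate 2, which lies among the controls, and the 5 others at 8.54 to 8.74 lie below every control. The difference was -1.02 ± 0.21 (SE), a 2.03-fold decrease, with adjusted p = 0.0051, and -1.24 ± 0.09 (adjusted p = 1.6e-06, 2.36-fold) without that library. NDUFA3 was also lower with MMS (-0.48, adjusted p = 0.00055) and GAD (-0.42, adjusted p = 0.00054) without reaching 1.5-fold, and both lay below their controls with no overlap. In the other 8 compounds NDUFA3 had differences from -0.22 with ETP to 0.14 with ENU, of which 0.14 with ENU (adjusted p = 0.045) and -0.15 with tBHQ (adjusted p = 0.018) passed only in the fit with the replicate block. In direct contrasts of the fit of all groups, QUE differed in NDUFA3 from each of the 10 other compounds at an adjusted p under 0.05.

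NDUFB10, another accessory subunit of the membrane arm, read 9.98, 10.33 and 11.37 in the QUE samples and 11.02, 11.28 and 11.35 in their controls. Again 5 QUE samples (9.98 to 10.40) lay below all controls and the library labelled QUE replicate 2 above them. NDUFB10 fell by 0.82 ± 0.19 (1.76-fold, adjusted p = 0.008), or by 1.01 ± 0.09 (2.01-fold, adjusted p = 6.7e-06) without that library, and a second probe set of the gene gave -0.76 and was called too. It was lower without reaching 1.5-fold with GAD (-0.55 ± 0.09, adjusted p = 9e-05), CUR (-0.46 ± 0.08, adjusted p = 0.0068), ENU (-0.45 ± 0.11, adjusted p = 0.0073) and MMS (-0.23, adjusted p = 0.013), each with no overlap between the compound and its control. Its values with MMC, NCS and H2O2 were 0.06, 0.13 and 0.07. QUE differed from 7 of 10 compounds, the exceptions being ENU, GAD and CUR, and from all 10 when replicate 2 of both ETP and QUE was left out.

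NDUFA7, an accessory subunit of the matrix arm, read 8.13, 8.44 and 9.24 with QUE and 8.93, 9.1 and 9.35 in the controls, so the groups overlapped through the library labelled QUE replicate 2. The difference of -0.60 ± 0.16 (1.52-fold, adjusted p = 0.014) became -0.75 ± 0.10 (adjusted p = 9.1e-05) without that library. The call did not hold throughout: a second probe set gave 0.04, the mean of both probe sets gave -0.28, and leaving out QUE replicate 1, 5 or 6 or QUE_DMSO replicate 3 or 4 also ended the call.

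**Figure D3:**
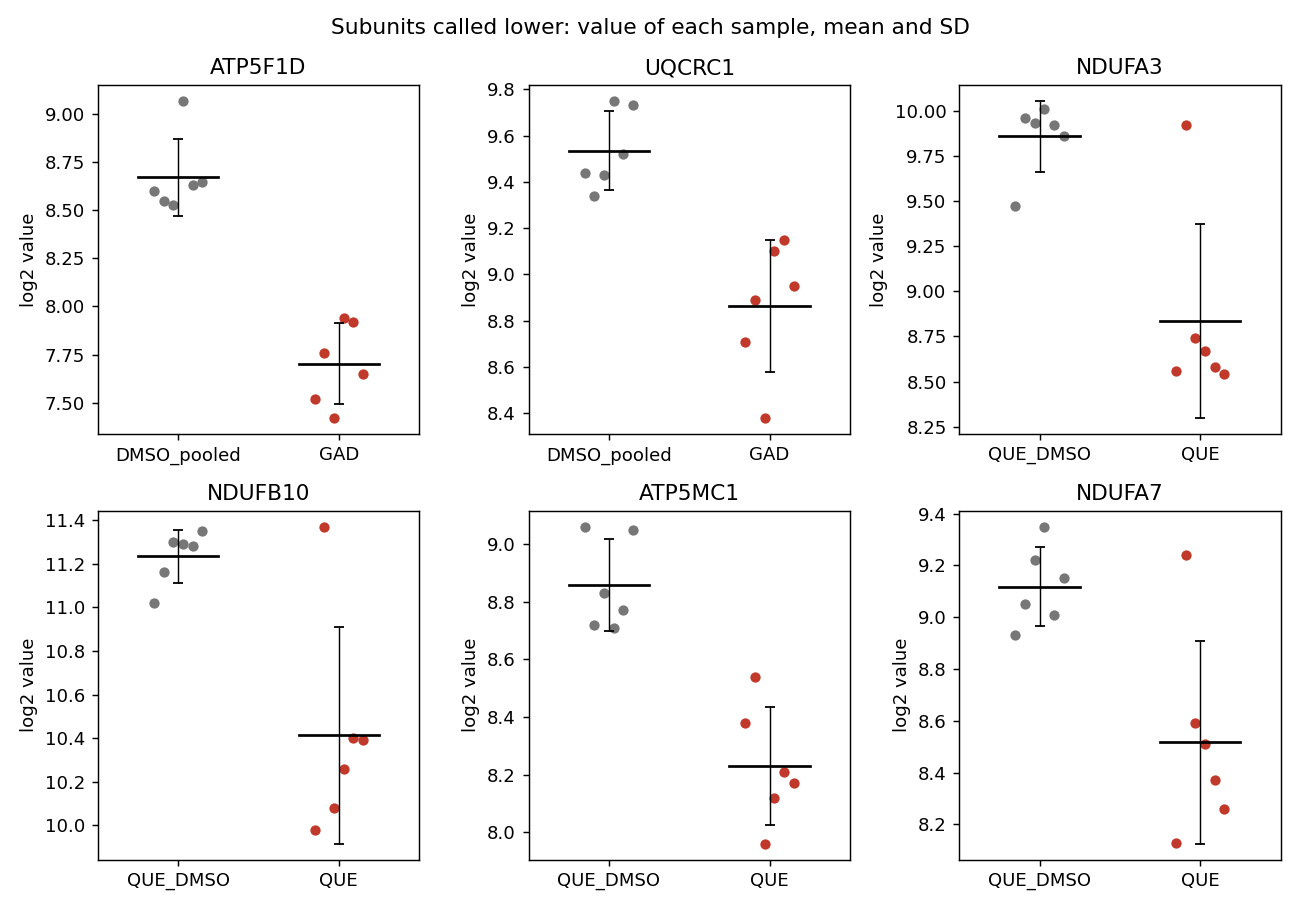
Log2 value of each sample (points; vertical axes, not starting at 0) with the group mean (bar) and SD (whisker) for the 6 subunits called, in control (grey) and compound (red) samples; 6 samples a group. The single red point at the level of the grey points in NDUFA3, NDUFB10 and NDUFA7 is the library labelled QUE replicate 2, and in ATP5F1D, UQCRC1 and ATP5MC1 no red point reaches a grey one.

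Other complex I subunits were lower with QUE without reaching 1.5-fold. NDUFS3, a core subunit of the matrix arm, was at -0.57 (adjusted p = 0.0042), NDUFV3 at -0.56 (adjusted p = 0.027), and NDUFS7, a core iron-sulfur subunit next to the ubiquinone site, at -0.53 (adjusted p = 0.014). Without the library labelled QUE replicate 2 all 3 of these were called, at -0.67 ± 0.06, -0.75 ± 0.06 and -0.65 ± 0.10. NDUFA9 (-0.49, adjusted p = 0.0015) and NDUFA12 (-0.46, adjusted p = 0.014) stayed uncalled with or without it. In all, 31 of 34 complex I subunits had a negative difference with QUE and their median was -0.21, against -0.03 for the bright genes.

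NDUFA12 was also lower with GAD (-0.51, adjusted p = 5.2e-05), MMS (-0.40, adjusted p = 0.00014) and tBHQ (-0.34, adjusted p = 0.0018). NDUFS1, the largest iron-sulfur subunit, went the other way, with 0.31 in GAD (adjusted p = 4e-04) and 0.25 in MMS (adjusted p = 0.032), and a different probe set of NDUFS1 was called with GAD at 0.69. NDUFV1, which holds the flavin that accepts electrons from NADH, was at -0.35 with CUR (adjusted p = 0.043), -0.25 with tBHQ (adjusted p = 0.035), -0.25 with BRO (adjusted p = 0.031) and -0.24 with GAD (adjusted p = 0.017). With tBHQ 29 of 34 complex I subunits had a negative difference, with a median of -0.11, and none was called. NDUFV3 was the member with the smallest p in NCS, at 9.53, 9.68 and 9.81 against 9.39, 9.46 and 9.51 in DMSO_pooled, a difference of 0.23 ± 0.06 (adjusted p = 0.034) that is 1.17-fold. Complex I probe sets had mean signals from 8.57 (NDUFS7) to 11.67 (NDUFB4), which are not comparable between probe sets.

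Complex II, succinate dehydrogenase, had 3 tested subunits and none was called in any compound. SDHA, the flavoprotein that oxidises succinate, had the highest positive difference among the tested subunits, with ENU, and did not reach 1.5-fold. Its ENU samples read 10.37, 10.52 and 10.66 and the DMSO_pooled samples 9.94, 9.99 and 10.04. The groups did not overlap, and the difference of 0.53 ± 0.06 (adjusted p = 4.1e-05) is 1.45-fold. In the other 10 compounds SDHA lay at -0.21 to 0.18. With the replicate block its -0.20 with BRO and -0.21 with CUR had an adjusted p of 0.043 and 0.046, and without the library labelled QUE replicate 2 its difference with QUE was -0.18 (adjusted p = 0.037). For SDHA the test that the 11 differences are equal gave adjusted p = 1.1e-15. The tested pseudogene SDHAP1 resembles SDHA in sequence, and how far probes of one also read the other was not tested; it differed by 0.41 with ENU (adjusted p = 0.016) and by 0.39 with QUE (adjusted p = 0.017), where SDHA itself was at -0.13. The membrane anchors SDHC and SDHD stayed between -0.20 and 0.20 throughout. Their mean signals ran from 9.51 (SDHD) to 9.96 (SDHA) within the complex.

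Complex III, which passes electrons from ubiquinol to cytochrome c, had 7 tested subunits and 1 call. UQCRC1, one of its core proteins, read 8.38, 8.92 and 9.15 with GAD and 9.34, 9.48 and 9.75 in DMSO_pooled, with no overlap. UQCRC1 fell by 0.67 ± 0.12 (1.59-fold, adjusted p = 0.00039), and lost the call, though not its adjusted p, without GAD replicate 3, at -0.57. It was lower without reaching 1.5-fold with BRO (-0.43, adjusted p = 0.0033), ENU (-0.34, adjusted p = 0.028), QUE (-0.34, adjusted p = 0.041) and MMS (-0.33, adjusted p = 0.0058). GAD differed from 7 of 10 compounds in UQCRC1, not from BRO, MMS or QUE. UQCRC2, the other core protein, had differences from -0.29 with QUE (-0.38, adjusted p = 0.0025, without the library labelled QUE replicate 2) to 0.08 with NCS, and none reached 1.5-fold. The other complex III members, UQCRB, UQCRH, UQCRQ, UQCR10 and UQCR11, lay between -0.25 and 0.20, and the mean signals of the complex ran from 9.28 (UQCRC1) to 12.28 (UQCRH).

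Complex IV, cytochrome c oxidase, had 17 nuclear subunit genes with a probe set, and 11 were tested. The 6 that failed the filter are isoforms known from particular tissues, namely COX4I2 of lung, COX7A1 and COX6A2 of muscle and heart, and COX6B2, COX7B2 and COX8C of testis, and their highest group means were 3.04, 2.96, 2.51, 3.2, 3.02 and 2.44, near the background. None of the 11 tested subunits was called in any compound. COX4I1, the widely expressed isoform of subunit 4, had differences from -0.06 with MMS to 0.14 with NCS, although another probe set of COX4I1 was called with GAD at 1.01. COX7A2L, which joins complexes III and IV into supercomplexes, had a positive difference in all 11 compounds, from 0.06 to 0.35 with GAD (adjusted p = 0.00019), and the test that its 11 differences are equal gave adjusted p = 0.08. With ENU all 11 subunits had a positive difference, with a median of 0.11, and 2 of them, COX7A2L (0.21, adjusted p = 0.045) and COX6C (0.15, adjusted p = 0.034), had an adjusted p under 0.05. QUE gave COX7B -0.39 (adjusted p = 0.0074) and COX5B -0.37 (adjusted p = 0.027). The mean signals of tested subunits ran from 10.49 (COX6B1) to 11.99 (COX6A1).

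ATP synthase had 17 tested subunits and 2 calls. ATP5F1D, the delta subunit of the central stalk, read 7.42, 7.71 and 7.94 with GAD and 8.53, 8.62 and 9.07 in DMSO_pooled. Every GAD sample lay below every control, and the highest control stood well above the 5 others at 8.53 to 8.65. ATP5F1D fell by 0.97 ± 0.11 (1.96-fold, adjusted p = 6.6e-06), a second probe set fell by 0.62 and was called too, and the call held in all 21 alternative settings at -1.02 to -0.80. The difference was negative in all 11 compounds, and below the fold minimum it passed an adjusted p of 0.05 with ENU (-0.56 ± 0.09, adjusted p = 0.00049), QUE (-0.46, adjusted p = 0.012), tBHQ (-0.45, adjusted p = 0.0036), MMS (-0.43, adjusted p = 0.0015) and BRO (-0.39, adjusted p = 0.0028). GAD differed in ATP5F1D from each of the 10 other compounds.

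ATP5MC1, 1 of 3 genes for the same mature c subunit of the membrane ring, read 7.96, 8.19 and 8.54 with QUE and 8.71, 8.8 and 9.06 in the controls, and no QUE sample, the library labelled replicate 2 included, reached the controls. It fell by 0.63 ± 0.11 (1.54-fold, adjusted p = 0.0022), fell by 0.69 ± 0.09 (adjusted p = 0.00011) without the library labelled QUE replicate 2, and lost the call at -0.57 without QUE replicate 3. ATP5MC3, a second gene for subunit c, had -0.38 with QUE (adjusted p = 0.007) and 0.28 with BRO (adjusted p = 0.026), and ATP5MC2, the third, lay between -0.17 and 0.01. With QUE all 17 ATP synthase subunits had a negative difference, with a median of -0.24, and 9 of 17 had an adjusted p under 0.05. Without the library labelled QUE replicate 2 all 17 stayed negative, with a median of -0.3. The catalytic beta subunit ATP5F1B was at -0.32 with QUE (adjusted p = 0.01) and -0.21 with tBHQ (adjusted p = 0.011), the alpha subunit ATP5F1A at -0.19 with GAD (adjusted p = 0.0081) and -0.16 with tBHQ (adjusted p = 0.026), and the gamma subunit ATP5F1C at -0.43 with GAD (adjusted p = 4.7e-05) and -0.40 with QUE (adjusted p = 0.0055). Mean signals ran from 8.45 (ATP5F1D) to 12.2 (ATP5F1A).

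The 5 called assembly factors went in both directions. NDUFAF3, which works with NDUFAF4 early in the building of complex I, was lower in 3 compounds. With GAD NDUFAF3 read 7.26, 7.72 and 8.03 against 8.67, 9.02 and 9.15 in DMSO_pooled, with no overlap, and fell by 1.26 ± 0.13 (2.4-fold, adjusted p = 2.2e-06). With MMS it read 7.8, 8 and 8.25 against 8.57, 8.69 and 8.89 in MMS_CTL, with no overlap, and fell by 0.71 ± 0.09 (1.64-fold, adjusted p = 6.6e-05).

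With QUE NDUFAF3 read 7.58, 8.09 and 9.09 against 8.89, 9.2 and 9.41 in QUE_DMSO, where only the library labelled QUE replicate 2 of the 6 QUE samples reached the controls, and fell by 1.0 ± 0.21 (2-fold, adjusted p = 0.005), or by 1.19 ± 0.13 (2.28-fold, adjusted p = 2.6e-05) without that library. The library labelled ETP replicate 2, at 7.91, was the single ETP sample far from its controls, the 5 others reading 9.03 to 9.46. With BRO the groups did not overlap either, at 7.96, 8.16 and 8.24 against 8.44, 8.71 and 8.83, and the difference of -0.54 ± 0.08 (adjusted p = 0.00031) is 1.45-fold. The calls with GAD and MMS held in all 21 alternative settings, and that with QUE in all 23. The differences with MMC, NCS, ENU, tBHQ and CUR were -0.09, -0.01, -0.07, -0.05 and -0.11, and that with H2O2 was -0.20. GAD differed in NDUFAF3 from 9 of 10 compounds, the exception being QUE.

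NDUFAF4, the partner of NDUFAF3, moved the other way with GAD: 9.46, 9.55 and 9.63 against 8.57, 8.89 and 9.3, with no overlap, a rise of 0.63 ± 0.10 (1.54-fold, adjusted p = 0.00013). Without DMSO_pooled replicate 3 the difference was under the fold minimum, at 0.56. A second probe set of NDUFAF4 was called with GAD at 0.68, and the same probe set was called lower with ENU at -0.66, where the one used here gave -0.11. BRO gave 0.54 ± 0.08 (adjusted p = 0.00035) and MMS 0.53 ± 0.12 (adjusted p = 0.0047), both without overlap, and tBHQ gave 0.41 (adjusted p = 0.027). With the replicate block NDUFAF4 also had an adjusted p of 0.00097 with NCS (-0.41) and 0.0048 with CUR (0.44). NDUFAF4 was the member with the smallest p in MMC, where the 5 samples read 8.34 to 9.04, at -0.30 ± 0.15 (adjusted p = 0.82, or 0.034 at -0.33 with the replicate block), and in ETP, at 8.29, 8.67 and 9.2 against 9.07, 9.11 and 9.49. The ETP difference was -0.51 ± 0.14 (adjusted p = 0.059). The library labelled ETP replicate 2 reads 9.2 and is the highest of its group, and leaving it out gave -0.62 ± 0.12 (1.53-fold, adjusted p = 0.0049). NDUFAF4 differed between compounds at an adjusted p under 0.05 in 30 of 55 pairs, and GAD differed from 6 of 10 compounds, not from tBHQ, BRO, MMS or CUR.

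**Figure D4:**
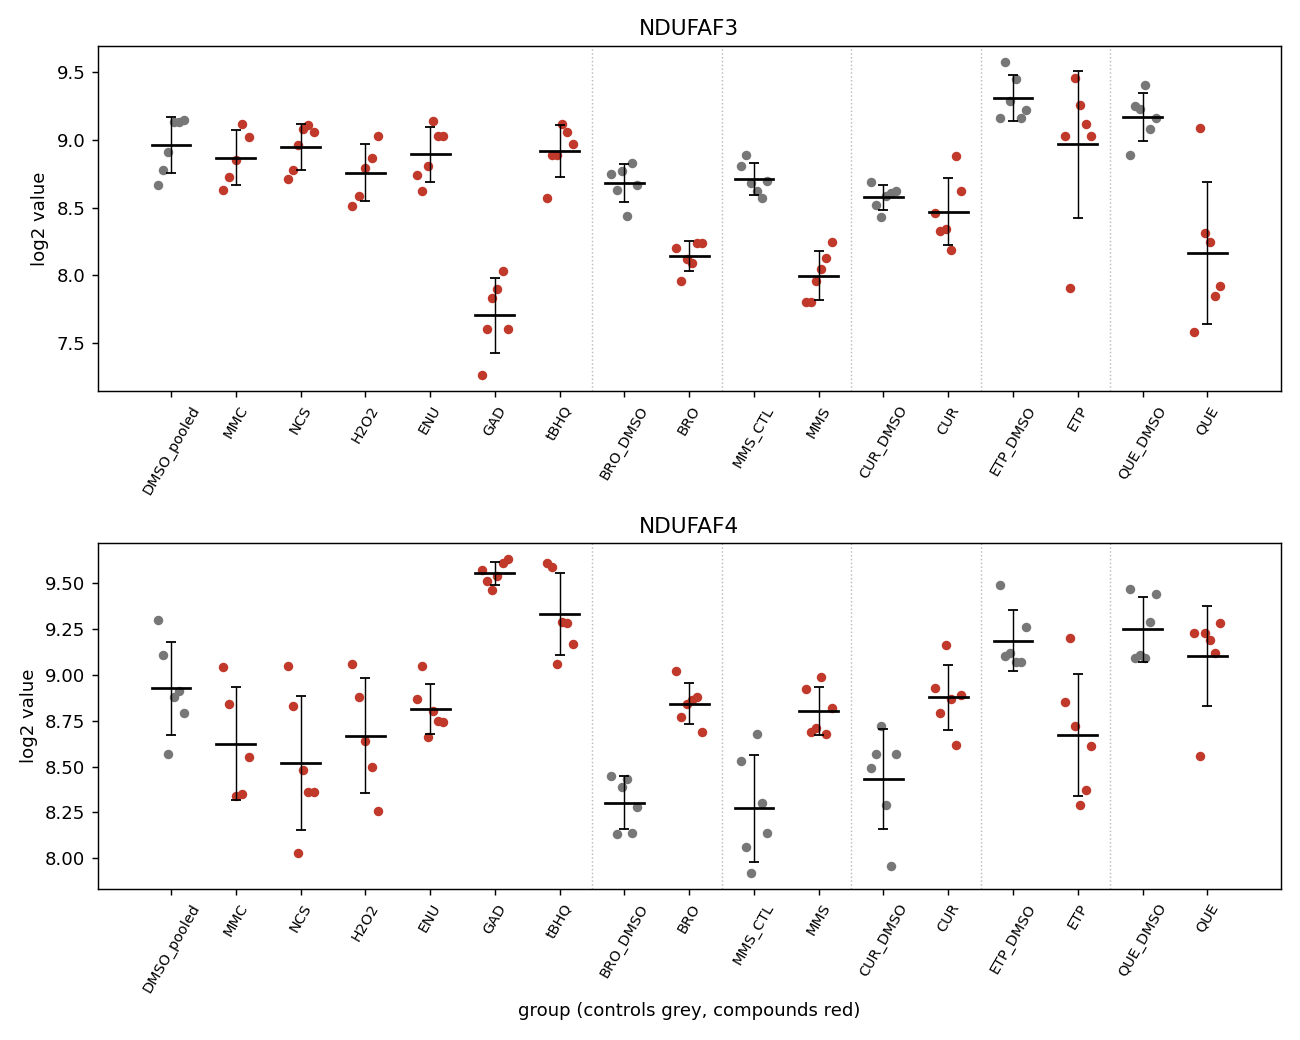
Log2 value of each sample (points; vertical axes, not starting at 0) for NDUFAF3 (top) and NDUFAF4 (bottom) in all 17 groups, controls grey and compounds red, with the mean and SD; dotted lines separate the sets that share a control. In GAD, BRO and MMS NDUFAF3 lies below and NDUFAF4 above every control of its set, and the lone points in ETP and QUE are the libraries labelled replicate 2.

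NDUFAF1, part of the complex that builds the membrane arm of complex I, read 8.98, 9.25 and 9.61 with GAD against 8.34, 8.49 and 8.59, with no overlap, and rose by 0.77 ± 0.10 (1.71-fold, adjusted p = 1.9e-05), a call that held in all 21 alternative settings. It was higher without reaching 1.5-fold with MMS (0.48, adjusted p = 0.00087), tBHQ (0.38 ± 0.06, adjusted p = 0.00046, the smallest p among members there) and ENU (0.37 ± 0.08, adjusted p = 0.004). GAD differed in NDUFAF1 from 9 of 10 compounds, all but MMS. NDUFAF5, which modifies the NDUFS7 subunit, read 7.41, 7.5 and 7.56 with MMS against 6.23, 6.88 and 7.29, with no overlap, and rose by 0.62 ± 0.13 (1.54-fold, adjusted p = 0.0032); the mean of its probe sets gave 0.31 and no call, and the call was also lost without MMS_CTL replicate 3. GAD (0.51, adjusted p = 0.00017) and BRO (0.41, adjusted p = 0.0012) gave NDUFAF5 differences under the fold minimum.

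SDHAF4, which helps SDHA join complex II, had 6.88, 7.56 and 7.94 with GAD and 6.16, 6.76 and 7.44 in the controls. The groups overlapped, and the rise of 0.68 ± 0.25 (1.6-fold, adjusted p = 0.029) was lost in 7 of the 12 settings that leave out 1 sample. With the replicate block, which takes up the scatter shared by same-numbered samples, the rise was 0.68 ± 0.06 (adjusted p = 2.5e-05) and was called. No pair of compounds differed in SDHAF4. SDHAF3 and SDHAF1, which serve the iron-sulfur subunit, gave 0.58 (adjusted p = 0.0079) and 0.35 (adjusted p = 0.0068) with GAD and 0.48 (adjusted p = 0.024) and 0.54 (adjusted p = 0.0065) with MMS. SDHAF2, which attaches the flavin to SDHA, gave 0.48 with GAD (adjusted p = 0.00018) and was the member with the smallest p in H2O2, at 0.24 ± 0.11 (adjusted p = 0.32). NDUFAF7, NDUFAF2, NDUFAF6 and NDUFAF8 were called nowhere. The median over 12 assembly factors was 0.41 with GAD and 0.32 with MMS, where the subunits had medians of -0.06 and -0.02 and the bright genes 0.05 and 0.06.

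The start sites of 4 called genes are printed to show what stands at members that moved together or apart: NDUFAF3, called in 3 compounds, its partner NDUFAF4, and 2 subunits, NDUFA3 and UQCRC1. They are RefSeq windows of GRCh38.p14, 250 bases before and 50 after the annotated start, read along the gene. Capitals mark matches on either strand to the motif of NRF1 (GCGC, any base, then TGCGC), of ETS factors (CCGGAAG) or of YY1 (AAGATGGCG), factors known to serve many respiratory chain genes. The windows are chr3:49020202-49020501 (plus strand) for NDUFAF3, chr6:96897842-96898141 (minus strand) for NDUFAF4, chr19:54102605-54102904 (plus strand) for NDUFA3 and chr3:48609597-48609896 (minus strand) for UQCRC1.
NDUFAF3: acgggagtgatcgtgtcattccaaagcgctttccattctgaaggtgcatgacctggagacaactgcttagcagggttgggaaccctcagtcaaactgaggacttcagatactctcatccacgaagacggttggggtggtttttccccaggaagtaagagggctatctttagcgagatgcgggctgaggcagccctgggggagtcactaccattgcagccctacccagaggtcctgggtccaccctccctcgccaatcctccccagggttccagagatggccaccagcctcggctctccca
NDUFAF4: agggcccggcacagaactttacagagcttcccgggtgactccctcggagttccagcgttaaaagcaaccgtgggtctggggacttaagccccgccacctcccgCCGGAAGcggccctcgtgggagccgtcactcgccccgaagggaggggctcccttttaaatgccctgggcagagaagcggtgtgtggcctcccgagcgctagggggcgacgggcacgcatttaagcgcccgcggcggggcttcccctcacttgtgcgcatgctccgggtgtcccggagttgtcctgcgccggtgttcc
NDUFA3: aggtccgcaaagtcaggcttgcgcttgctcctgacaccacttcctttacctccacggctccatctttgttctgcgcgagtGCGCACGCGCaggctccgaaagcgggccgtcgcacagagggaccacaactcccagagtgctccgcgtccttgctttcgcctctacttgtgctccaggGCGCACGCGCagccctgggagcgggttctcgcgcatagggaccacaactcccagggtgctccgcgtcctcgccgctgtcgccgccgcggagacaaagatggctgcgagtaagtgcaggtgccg
UQCRC1: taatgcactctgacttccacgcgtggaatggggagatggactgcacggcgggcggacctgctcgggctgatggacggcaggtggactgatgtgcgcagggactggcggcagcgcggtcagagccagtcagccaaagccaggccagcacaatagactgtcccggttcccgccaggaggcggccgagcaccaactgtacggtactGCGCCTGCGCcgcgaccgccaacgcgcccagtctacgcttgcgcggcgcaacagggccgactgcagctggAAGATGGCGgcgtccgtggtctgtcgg

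The NDUFAF3 window held none of the 3 motifs, that of NDUFAF4 held 1 ETS motif, that of NDUFA3 held 2 NRF1 motifs, and that of UQCRC1 held 1 NRF1 and 1 YY1 motif, with no overlap between them. Of 62 tested subunits with a window, 15 (24.2%) held the NRF1 motif, 18 (29.0%) the ETS motif and 7 (11.3%) the YY1 motif. The shares over 15842 protein-coding genes were 8.6%, 14.2% and 2.7%, and over all 27305 windows of this length 6.3%, 10.7% and 1.8%. Any of the motifs stood in 34 subunit windows (54.8%) and in 5 of 11 assembly factor windows (45.5%), against 22.8% of protein-coding genes. Of 10 called members with a window 4 held the NRF1 motif, 1 the ETS motif and 2 the YY1 motif, and 4 (NDUFAF3, NDUFAF1, NDUFB10 and ATP5MC1) held none. These are matches of letters, not measured binding.

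Averaged over the 72 tested subunits, GAD and tBHQ samples lay just below their controls. The subunit mean was 10.48 to 10.57 with GAD and 10.45 to 10.56 with tBHQ, and 10.58 to 10.67 in DMSO_pooled, which neither reached. The difference was -0.09 for each, where the same mean over all genes differed by -0.05 with GAD and 0.02 with tBHQ. The sign of the median over members with GAD depended on the probe set: it was -0.05 from the brightest probe set of each gene and 0.05 from the mean of all probe sets. With QUE 5 samples lay at 10.60 to 10.73 and the library labelled QUE replicate 2 at 10.99, against 10.84 to 10.99 in QUE_DMSO. The QUE difference was -0.21, where all genes differed by -0.01, the median subunit was -0.16, or -0.20 without that library, and 64 or 66 of 72 subunits were negative. Equal array medians and quantile normalization gave QUE medians over members of -0.15 and -0.12, and tBHQ medians of -0.09 and -0.09. In the other 8 compounds the subunit means of compound and control overlapped, with differences of -0.05 (CUR) to 0.03 (H2O2).

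**Figure D5:**
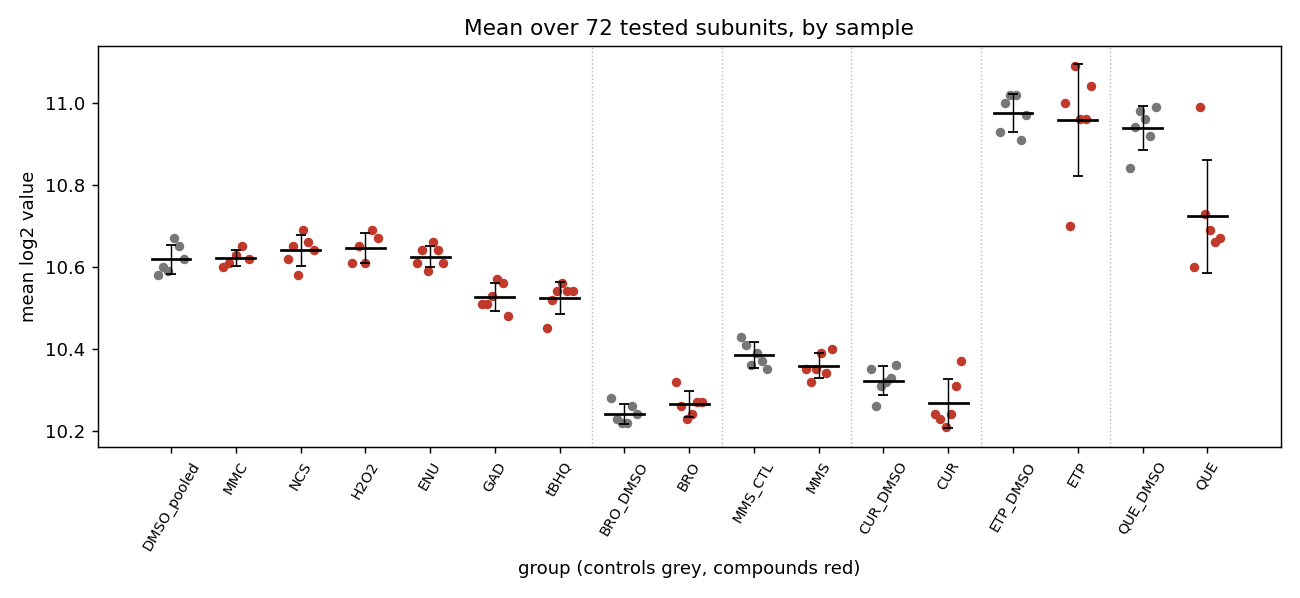
Mean log2 value over the 72 tested subunits (vertical axis, not starting at 0) in each sample (points) of the 17 groups (horizontal axis), controls grey and compounds red, with the group mean and SD; dotted lines separate the sets. GAD and tBHQ points lie below all DMSO_pooled points, 5 of 6 QUE points lie below the QUE_DMSO points, and the lone ETP point at 10.70 and QUE point at 10.99 are the libraries labelled replicate 2.

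The responses of the compounds were compared in 1 fit of all groups. The test that a gene's 11 differences are equal had an adjusted p under 0.05 for 66 of 86 members (76.7%), 55 of 72 subunits (76.4%) and 10 of 12 assembly factors (83.3%), against 84.7% of all genes and 88.1% of the bright ones. The smallest of these adjusted p among members were 1.1e-15 for SDHA, 3.5e-14 for NDUFAF4 and 1.3e-13 for NDUFAF1. NDUFS4 (-0.08 to 0.02), a complex I subunit, and COX4I1 are examples with no such difference, with adjusted p = 1 and 0.8. The 55 pairs were each adjusted over all tested genes and not over the pairs.

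Genes that serve the respiratory chain outside the rule were read from lists chosen by function: ubiquinone synthesis and electron carriers, further assembly factors, the citric acid cycle, regulators, protein import, protein quality control and the mitochondrial ribosome. None of the 13 subunits encoded in mitochondrial DNA had a probe set of its own here. Among 18 carrier and ubiquinone genes GAD changed 4 (22.2%, where 26.2% of all genes were called), and COQ2, which attaches the side chain of ubiquinone, fell by 1.16 ± 0.10 (2.24-fold, adjusted p = 4.4e-07) while PDSS1, which makes that side chain, rose by 0.75 (adjusted p = 0.00099). COQ2 also fell with ENU (-0.73, adjusted p = 2.1e-05), BRO (-0.63, adjusted p = 0.00038) and CUR (-0.60, adjusted p = 0.0044). QUE lowered 3 of the 18 (16.7%, where 6.65% of all genes were called lower), among them ETFDH, which feeds electrons from fatty acid oxidation to ubiquinone (-1.0, adjusted p = 0.0091), and COQ7 (-0.79, adjusted p = 0.0027). Without the library labelled QUE replicate 2 it lowered 5 (27.8%, where 9.73% of all genes were called lower), with ETFDH at -1.25 and COQ7 at -0.90. CYC1, the cytochrome of complex III, gave -0.56 with QUE (adjusted p = 0.0062) and -0.38 with GAD (adjusted p = 0.00077), below the fold minimum, and was called with QUE without that library (-0.66). CYCS, cytochrome c itself, was called nowhere and had its lowest adjusted p with BRO (0.34, adjusted p = 0.0072). PDSS1 rose with MMS (0.80, adjusted p = 0.0014), and COQ10B rose with tBHQ (0.68, adjusted p = 2.1e-06), GAD (0.62, adjusted p = 1.1e-05) and BRO (0.59, adjusted p = 0.00062).

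Of 43 further assembly factors GAD raised 6 and lowered 2 (18.6%, where 26.2% of all genes were called). COX19, a copper factor of complex IV, rose by 1.3 ± 0.15 (2.46-fold, adjusted p = 6e-06) and TTC19, a complex III factor, fell by 0.78 (adjusted p = 0.006). QUE lowered 4 and raised 1 (11.6%, where 13% of all genes were called), and without the library labelled QUE replicate 2 it lowered 5 and raised 1 (14%, where 18.9% were called). ACAD9, which works with NDUFAF1 in complex I assembly, fell by 1.08 (2.11-fold, adjusted p = 0.004) and UQCC2, a complex III factor, fell by 0.79 (adjusted p = 0.0027), or by 1.25 and 0.89 without that library. COA6, a complex IV factor, rose with tBHQ (0.74, adjusted p = 3.2e-06), BRO (0.71, adjusted p = 0.00022), GAD (0.70, adjusted p = 3.4e-06) and MMS (0.60, adjusted p = 1.3e-05). MMS lowered TTC19 (-0.70, adjusted p = 0.0022) and ENU lowered NUBPL, an iron-sulfur factor of complex I (-0.68, adjusted p = 0.00038). With the replicate block TTC19 was also called lower with ENU (-0.67, adjusted p = 0.00016). SCO2, a copper factor of complex IV, had its lowest adjusted p with tBHQ (0.49, adjusted p = 0.0017) and was called nowhere.

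Among 18 tested regulators GAD raised 4 and lowered 1 (27.8%, where 26.2% of all genes were called). MTERF1, a mitochondrial transcription factor, rose by 1.24 (2.37-fold, adjusted p = 7.9e-07), TEFM, a mitochondrial transcription elongation factor, by 0.78 (adjusted p = 1.2e-05), and PPARGC1B, a coactivator of mitochondrial biogenesis, fell by 1.15 (2.22-fold, adjusted p = 8.1e-06). PPARGC1B also fell with QUE (-0.99, adjusted p = 0.0012) and ENU (-0.70, adjusted p = 0.0016) and rose with CUR (0.71, adjusted p = 0.03), and TFB1M fell with ENU (-0.75, adjusted p = 0.003). TFAM, which packages mitochondrial DNA, gave 0.51 with MMS (adjusted p = 0.012), and NRF1 lay between -0.43 and 0.21 with no call, while PPARGC1A failed the filter. Of 16 import genes QUE lowered 3 (18.8%, where 6.65% of all genes were called lower), TIMM13 (-0.87, adjusted p = 0.0012), TIMM8B (-0.66, adjusted p = 0.0061) and TIMM50 (-0.61, adjusted p = 0.0015), which were at -0.98, -0.80 and -0.68 without the library labelled QUE replicate 2. The carrier translocase TIMM22 rose with GAD (0.82, adjusted p = 1.8e-05) and MMS (0.59, adjusted p = 0.015). TIMM8A was called higher with CUR only in the fit with the replicate block (0.65, adjusted p = 0.0018). Of 14 quality control genes ATF5, a factor of the mitochondrial unfolded protein response, rose with GAD (1.05, adjusted p = 4.8e-05), where 26.2% of all genes were called. The protease OMA1 fell with ENU (-0.63, adjusted p = 7.1e-05), and the share of all genes called with ENU is given above. Of 11 citric acid cycle genes IDH3A rose with GAD (0.63, adjusted p = 0.00029), where 26.2% of all genes were called.

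Of 75 mitochondrial ribosome genes GAD raised 4 and lowered 1 (6.67%, where 26.2% of all genes were called), MMS raised 3 (4%, where 4.46% of all genes were called higher) and QUE lowered 2 (2.67%, where 6.65% were called lower). Without the library labelled QUE replicate 2 the QUE count was 5 (6.67%, where 9.73% were called lower): MRPL12, MRPL20, MRPL23, MRPL39 and MRPL54. MRPL30 rose with GAD (0.89, adjusted p = 1.1e-07) and MMS (0.63, adjusted p = 2.6e-05), MRPL10 rose with GAD (0.71, adjusted p = 2.2e-05), MRPL49 rose with MMS (0.73, adjusted p = 7.9e-05), ENU (0.65, adjusted p = 0.00059) and ETP (0.61, adjusted p = 0.0024), the last under the fold minimum at 0.55 without the library labelled ETP replicate 2. MRPL54 fell with QUE (-0.78, adjusted p = 0.0014, or -0.89 without the library labelled QUE replicate 2). MRPL39 went in both directions, up with MMS (0.59, adjusted p = 0.00026) and down with QUE (-0.69, adjusted p = 0.02). With MMS 66 of 75 were positive with a median of 0.15, and with QUE 59 of 75 were negative with a median of -0.17, where all genes had medians of 0.06 and 0. Without the library labelled QUE replicate 2 the QUE count was 56 of 75 and the median -0.19.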

How the data were processed

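Expression of 100 samples of HT1080 cells was taken from log2 values that the authors deposited, 1 per probe set. Partek and GCRMA are named per the submitters' processing notes, and versions and settings are not given in the sources used here. GCRMA subtracts an estimate of background binding, which compresses dim probe sets toward a floor. Of 54715 probe sets, 40914 matched 1 gene, and the probe set with the highest mean stood for its gene. Genes with a group mean of at least 4 in at least 1 of 17 groups were tested (11496 of 19774). Each compound was compared with its own control in limma 3.58.1 (R 4.3.3), with Benjamini-Hochberg adjustment over all tested genes. A call needed an adjusted p under 0.05 and at least 1.5-fold. Errors are standard errors of the log2 difference unless said otherwise. Differences between compounds came from 1 limma fit of all groups. One ETP_DMSO sample had a second array and was averaged. The number of samples, 5 or 6 a group, limits the precision.

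The members and gene lists were chosen with earlier results of these data known, so the counts over them are descriptions. Genes are named by rule: a panel of subunits, every member called in a compound, the member with the smallest p in each compound without a call, the brightest and dimmest member of each complex, and up to 2 called genes per list and compound. Further genes close to the thresholds were named after their values were seen. Same-numbered samples of compound and control deviated together in every pair (correlations of 0.16 to 0.84) in 9 compounds, but not in MMS (-0.13 to 0.32) or ETP (-0.0022 to 0.65), and a fit with the number as a block was an alternative. Other alternatives were no filter, a filter at 6, the mean of all probe sets, equal array medians, quantile normalization, 1 fit of all groups, other variance models, no fold minimum, and leaving out single samples. The fit was tested on simulated data: of 200 genes changed 2-fold among 11496, it recovered 83.5% for ETP, 90.5% for QUE, 95.5% for GAD and 95.5% for MMS. The simulated noise was independent between samples, and recovery of changes near 1.5-fold was not tested.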

Additional observations from a re-analysis of the deposited data

Results flagged for a closer look

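In 7 of 43 groups examined, 1 sample lay far from the others of its group by Dixon's test. By chance that test picks about 1 in 20 independent groups. The 43 groups share samples, and the library labelled QUE replicate 2 enters several of the 7, so the count cannot be set against that rate. The mean over tested subunits was 10.45 in tBHQ replicate 1, below its 5 fellows at 10.52 to 10.56. The library labelled ETP replicate 2 had a subunit mean of 10.7 against 10.96 to 11.09, and the library labelled QUE replicate 2 one of 10.99 against 10.60 to 10.73. The library labelled QUE replicate 2 also stood above its group in NDUFA3, at 9.92 against 8.54 to 8.74, and in NDUFB10, at 11.37 against 9.98 to 10.40. Whether the labels of these ETP and QUE libraries are correct was not tested. Among the controls, ATP5F1D read 9.07 in DMSO_pooled replicate 4, against 8.53 to 8.65, and NDUFA3 read 9.47 in QUE_DMSO replicate 1, against 9.86 to 10.01.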

How the results depend on the processing

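The calls of NDUFAF3, NDUFAF1 and ATP5F1D with GAD and of NDUFAF3 with MMS held in all 21 settings, and those of NDUFAF3, NDUFA3 and NDUFB10 with QUE in all 23. Without a fold minimum the members called were 1 with NCS, 13 with ENU, 40 with GAD, 19 with tBHQ, 10 with BRO, 23 with MMS, 3 with CUR and 30 with QUE. From the mean of all probe sets of a gene MMS had 1 called member, the median over members with GAD turned from -0.05 to 0.05, and differences turned positive for COX7B (0.2), NDUFB1 (0.1) and NDUFB8 (0.07) with GAD, NDUFB8 (0.1) with MMS and UQCR10 (0.07) with QUE. Equal array medians gave MMS a median of 0.03 instead of 0. The replicate block moved no count of called members, but without a fold minimum it moved those of NCS (11), CUR (12), BRO (25), tBHQ (33), ENU (21), MMC (1) and H2O2 (1) by over 1.5 times. In ETP, where the numbers did not pair the samples by the rule, it gave 2, and in MMS 17. With the pairing kept but number 2 left out, a setting added after seeing the data, ETP had 1 and QUE 8, and QUE had 9 without replicates 2 and 3. Leaving out 1 sample at a time gave 0 to 1 with ENU (1 without ENU replicate 4 or DMSO_pooled replicate 2 or 3), 4 to 7 with GAD, 0 to 1 with BRO (1 without BRO_DMSO replicate 4), 1 to 4 with MMS (1 without MMS_CTL replicate 3, 4 without MMS_CTL replicate 4), 0 to 1 with ETP (1 without ETP replicate 2) and 4 to 8 with QUE (8 without QUE replicate 2). The causes of these shifts were not tested. Single members were followed only where their adjusted p was under 0.05 in the main fit, which none had with MMC, H2O2 or ETP. Of their values under all settings, 2805 kept their direction and side of the thresholds, 151 passed newly, 18 no longer passed and 5 changed sign. The setting without a fold minimum passes every such member, so part of the 151 was fixed in advance. Each probe set reads 1 stretch of a transcript, dim probe sets have compressed differences, and a call near 1.5-fold can move with 1 sample.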
